A study of Mus musculus with 8 samples.

Results

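The cytosolic ribosomal protein genes encode the proteins of the ribosome that translates nuclear-encoded messenger RNAs. On the arrays they were taken as all non-control probes whose gene name in the scanner files was Rpl or Rps with a number (and a letter a, x or y where present), or Rplp0, Rplp1, Rplp2 or Rpsa, leaving out pseudogenes and the S6 kinases. This gave 128 probes of 41174, for 76 genes: 42 of the large subunit, 31 of the small subunit and 3 of the ribosomal stalk. After dim probes were set aside, 74 of the 76 were among the 14864 genes tested, and Rpl14 and Rpl31 were not, because their probes were well above background on fewer than 4 of the 8 arrays. A pair of ribosomal protein genes also sits under older names that the rule does not catch, a further Rplp0 probe pair (Arbp) and Rpl34 (1100001I22Rik). The Arbp probes had differences of -0.14 and -0.11. Those of Rpl34 had 0.03 (placed on chromosome 6) and -0.03 (placed on chromosome 3).

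The arrays compared primary vascular smooth muscle cells grown from aortas of C57BL/6 mice and given 1 µM angiotensin II (AngII) with 200 ng/ml cyclosporin A (CsA), as 4 replicates, against the same kind of cells given 1 µM AngII without CsA, also as 4 replicates. All 8 cultures therefore received AngII, and cells without AngII are not analysed here. CsA bound to cyclophilin blocks the phosphatase calcineurin, which AngII activates in these cells. The labels call the 4 cultures of a condition independent and do not say whether the replicate number ties an AngII+CsA array to the AngII array of that number, but arrays of the same number shared a slide.

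A ribosome joins a small subunit, which reads the messenger RNA, to a large subunit, which forms peptide bonds. Its proteins are made in matched amounts, and their messenger RNAs are among the most abundant and most steadily expressed of growing cells. Most carry a terminal oligopyrimidine tract, a run of C and T that begins with a C at the first base of the messenger RNA and through which the mTOR kinase pathway sets their translation. Angiotensin II is known to raise protein synthesis in vascular smooth muscle, in part through S6 kinase, whose substrate is the ribosomal protein S6.

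This tract is shown first because it is the sequence feature that the family is known for. RefSeq promoter windows of assembly GRCm38.p6 were matched by symbol for 56 of the 76 genes, with 65 annotated starts. A C at the annotated start followed by at least 4 bases that were all C or T, on the gene's strand, stood at 13 of these 65 starts (20%), against 823 of 32851 starts of all genes (2.51%). A start annotated a few bases away from the true one is missed by such a search, and no match says only that the letters are not at that position. The windows of 6 genes named below run from 30 bases before the start to 20 bases from it, with the tract in capitals.
Rps6, chr4:86857348-86857397, minus strand: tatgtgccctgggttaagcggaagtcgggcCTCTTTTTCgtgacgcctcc
Rps15a, chr7:118116128-118116177, minus strand: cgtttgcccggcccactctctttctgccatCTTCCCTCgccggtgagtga
Rps18, chr17:33955646-33955695, minus strand: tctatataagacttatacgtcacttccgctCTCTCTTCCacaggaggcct
Rpl35a, chr16:33056452-33056501, plus strand: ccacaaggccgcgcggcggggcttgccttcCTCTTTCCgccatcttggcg
Rpl38, chr11:114668550-114668599, plus strand: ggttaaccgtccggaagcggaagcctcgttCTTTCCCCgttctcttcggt
Rplp2, chr7:141447621-141447670, plus strand: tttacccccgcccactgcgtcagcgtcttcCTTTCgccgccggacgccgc

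The probes themselves are 60 bases long. Ribosomal protein genes have many processed pseudogenes, so that a probe may also read near-identical copies. The probes of Rps21 and Rpl36a are shown because probes of the same gene behaved differently, and that of Rpl21 for its content of G and C, as described below. Positions are those of the scanner files in build mm7. In the overlapping pairs of Rps21 and of Rpl36a, capitals mark the bases that the overlapping probe does not hold, and 30 bases of each are printed. The 30 printed bases are the last ones of A_52_P740562 and A_52_P197926 and the first ones of the other probes that are not printed whole.
Rps21 A_51_P489959, chr2:180758913-180759144, plus strand: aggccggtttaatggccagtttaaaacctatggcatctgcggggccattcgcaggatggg
Rps21 A_52_P678800, chr2:180759274-180759333, plus strand: TTTTTCCCCTTTGTTAGGaacttttgagca
Rps21 A_52_P740562, chr2:180759292-180759349, plus strand: ttacaaataaaaGTTTTAAGTACTTGTGAC
Rpl36a A_52_P481880, chrX:129306720-129306779, plus strand: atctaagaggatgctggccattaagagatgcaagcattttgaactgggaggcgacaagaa
Rpl36a A_51_P283920, chrX:129307188-129307247, plus strand: GACAATAAAATCTTGACCTTtcaacccctt
Rpl36a A_52_P197926, chrX:129307208-129307267, plus strand: ggagggaataCATTAAAAGCTTTCAGAAAT
Rpl21 A_52_P258959, chr5:145727505-145727564, plus strand: ggcagccctcgggccttgtaagagcgcgca

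Each value is the log2 processed signal less the array's own 75th percentile, so that 0 is the brightness below which 75% of that array's probes lie, and a difference of 1 is a 2-fold difference. On the arrays, 42.8 to 51.7% of 43379 spots were well above background, and none was saturated. Arrays of the same replicate number deviated together from their group means (Pearson's r across genes from 0.70 to 0.86, against -0.76 to 0.26 between other arrays of the opposite groups). Rcan1, a calcineurin target used as the check of the drug, stood at 2.15, 2.32, 3.68 and 2.83 in AngII+CsA, against 4.55, 4.44, 5.69 and 5.35 in AngII. Its difference was -2.26 and its groups did not overlap. In limma its adjusted p was 0.0131 with the replicate number fitted as a block, and 0.9999 on the groups alone. The fit on the groups alone thus did not call this gene either. All 6 smooth muscle markers looked for were measured, and those of endothelium (2 of 5), macrophages (2 of 4) and fibroblasts (2 of 3) in part.

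As a family the ribosomal protein genes were bright on every array and differed little between the groups. Their median level was 9.43, 9.08, 9.71 and 9.13 on the AngII+CsA arrays 1 to 4, against 9.86, 9.09, 9.63 and 9.15 on the AngII arrays 1 to 4. The arrays of numbers 1 and 3 were high and those of numbers 2 and 4 low in both groups, and the groups overlapped. Of the 74 genes tested, 0 rose and 0 fell with CsA at an adjusted p of 0.05, by limma on the groups alone, where 0% of all 14864 genes were called. With the replicate number as a block the members again gave 0 calls, where 0.0269% of all genes were called. At an unadjusted p of 0.05, 0 members passed on the groups alone (0.283% of all genes) and 0 with the block (5.32% of all genes). No member had groups that did not overlap, as 0.363% of all genes did. Lower RNA per cell and fewer cells of a type cannot be told apart in such bulk samples.

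**Figure D1:**
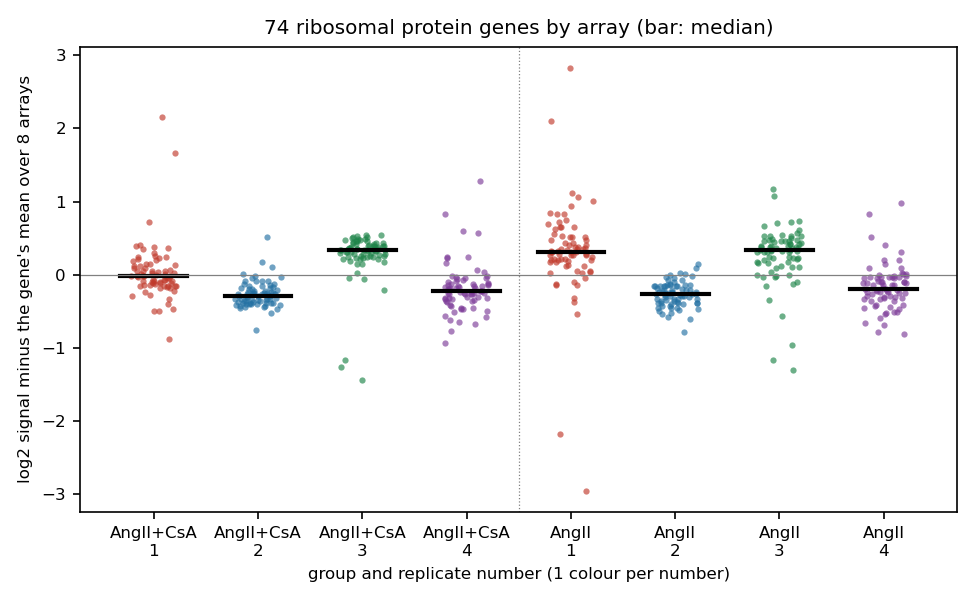
Each point is 1 of the 74 ribosomal protein genes on 1 array, as its log2 signal minus that gene's mean over the 8 arrays (vertical axis), for AngII+CsA replicates 1 to 4 and then AngII replicates 1 to 4, with 1 colour per replicate number and a bar at the median. Arrays of the same number sit at similar heights in both groups, and the largest deviations, from Rpl39 and Rps4x, lie in number 1.

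The differences were narrow as well as uncalled. The median difference, AngII+CsA minus AngII, was -0.09 over the members and -0.03 over all genes, and it ranged from -0.25 (Rps15a) to 0.43 (Rps4x). It lay within 0.25 log2 units of 0 for 72 of 74 members (97.3%), against 83.8% of all genes. Related gene lists were about as narrow. The share was 100% of mitochondrial ribosomal protein genes, 95.6% of ribosome biogenesis genes and 95.2% of mTOR genes. For translation factors it was 94.7%, and for the 7 paralogs and fusion genes 85.7%. In the fit with the block, the 95% interval of 72 members lay within 1 log2 unit on either side of 0, the exceptions being Rps4x and Rpl21. By subunit the median difference was -0.07 over 40 large subunit genes, -0.10 over 31 small subunit genes and -0.13 over the 3 stalk genes.

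More members were below 0 than above it, 63 against 11 (85.1% below 0, against 56.6% of all genes), and this split varied with the pair of arrays and with the processing. Within replicate number 1 the median difference was -0.33, with 64 of 74 members below 0 (86.5%). Over all genes it was -0.10, with 59.2% below 0. The median there was -0.31 for mitochondrial ribosomal protein genes (80.9% below 0) and -0.38 for 7 paralogs and fusion genes (85.7%). It was -0.11 for translation factors (60.5%), -0.05 for mTOR genes (61.9%) and 0.04 for ribosome biogenesis genes (46.7%). Within numbers 2, 3 and 4 the members' median difference was -0.00, 0.02 and -0.02, with 39, 32 and 45 members below 0. Of all 14864 genes, 7516, 7816 and 7945 were below 0 in these numbers. Leaving out 1 array moved the median difference to values from -0.22 (without AngII+CsA replicate 3) to 0.00 (without AngII replicate 1). It was -0.10 without AngII+CsA replicate 1, -0.19 without AngII replicate 2, -0.17 without AngII replicate 4, -0.03 without AngII+CsA replicate 4, -0.01 without AngII+CsA replicate 2 and -0.00 without AngII replicate 3. With normexp background correction it was 0.05. With quantile normalization 45 of 74 members were below 0 and the median was -0.01. Without any scaling the median of all genes moved by 0.21, to 0.18, and 2 of 74 members were below 0 with a median of 0.12. Relative to the median of all genes, where a constant per array cancels, the members' median was -0.07 with the main scaling and so also without scaling. After quantile normalization it was -0.01.

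**Figure D2:**
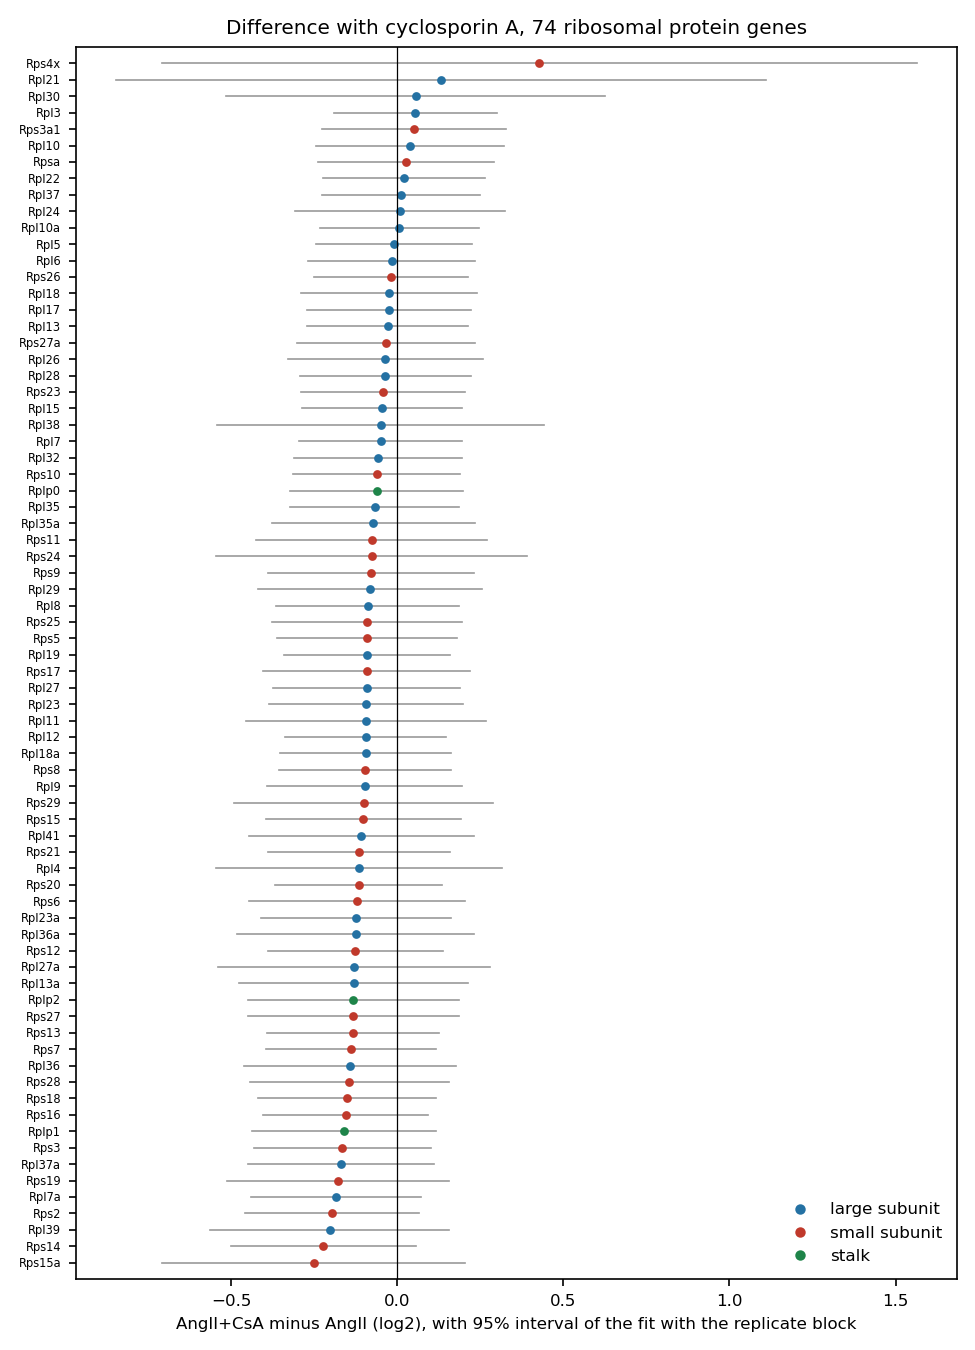
Difference between AngII+CsA and AngII (log2, horizontal axis) for each of the 74 genes, ordered by size, with the 95% interval of the fit with the replicate block as a line and the subunit as the colour of the point. All intervals include 0, and those of Rps4x and Rpl21 are the widest.

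The 6 members lower in AngII+CsA in all 4 pairs were Rpl7a, Rpl12, Rps3, Rps7, Rps13 and Rps14, and 0 were higher in all 4. These shares, 6 and 0 of 74, stood beside 10.2% and 4.78% of all genes. In number 2 the difference was near 0 for Rpl12 (-0.002), Rpl7a (-0.008), Rps13 (-0.008), Rps3 (-0.009) and Rps14 (-0.016). For Rps7 it was -0.118 there. Further tested probes were higher with CsA in number 2 for Rps3 (0.01) and Rpl7a (0.20 and 0.28), while the further Rps13 probe was lower in every pair.

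In the gene by gene description that follows, the 95% interval and adjusted p of each difference are from the fit with the block. In limma on the groups alone, no member had an adjusted p below 0.9999. The stalk proteins recruit the elongation factors to the large subunit. Rplp0, the stalk base, stood at 8.15, 7.90, 8.86 and 8.44 in AngII+CsA, against 8.24, 7.79, 9.11 and 8.46 in AngII. Its groups overlapped, with number 3 high and number 2 low in both. For Rplp0 the difference was -0.06, with an interval of -0.32 to 0.20 and an adjusted p of 0.954, while the F test over numbers passed at an adjusted p of 0.0063. The probe has 10 spots per array, and the files place it on chromosome 8 while the RefSeq table has the gene on chromosome 5, so which transcript it reads is uncertain. The Arbp probes, which the files place on chromosome 5, had differences of -0.14 and -0.11. Rplp1, which with Rplp2 forms the mobile arms of the stalk, stood at 11.40, 11.27, 11.65 and 11.26 in AngII+CsA, against 11.65, 11.17, 12.00 and 11.39 in AngII. With the block, Rplp1 differed by -0.16 (95% interval -0.44 to 0.12, adjusted p = 0.911), and over numbers it did not pass (adjusted p = 0.0526). Rplp2 stood at 8.80, 9.08, 9.23 and 9.45 in AngII+CsA, against 9.32, 9.07, 9.18 and 9.52 in AngII, with its highest values in number 4 in both groups. Its difference of -0.13 had a 95% interval of -0.45 to 0.18 (adjusted p = 0.922 with the block), and its F test over numbers did not pass (adjusted p = 0.2).

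Among the small subunit proteins, Rps6, the substrate of S6 kinase, stood at 7.37, 6.90, 7.22 and 6.22 in AngII+CsA, against 7.82, 6.99, 6.99 and 6.40 in AngII. Number 4 was lowest in both groups and the groups overlapped. Rps6 thus differed by -0.12 (-0.45 to 0.20, adjusted p = 0.932 with the block), and it passed over numbers (adjusted p = 0.009). Rpsa, which also acts as a laminin receptor at the cell surface, stood at 5.19, 5.04, 6.00 and 5.72 in AngII+CsA, against 5.10, 4.87, 6.20 and 5.68 in AngII. Numbers 3 and 4 were high and number 2 low in both groups. The Rpsa difference was 0.03 (95% interval -0.24 to 0.29, adjusted p = 0.977 with the block), and the test over numbers passed (adjusted p = 0.0051). Rps3, which lines the entry of the messenger RNA channel, stood at 11.14, 10.78, 11.57 and 11.03 in AngII+CsA, against 11.53, 10.79, 11.74 and 11.12 in AngII. The AngII+CsA array was the lower one in all 4 pairs, although the groups overlapped. For Rps3 the difference was -0.16, with an interval of -0.43 to 0.10 and an adjusted p of 0.899, while the F test over numbers passed at an adjusted p of 0.0145. Rps19, the gene first linked to Diamond-Blackfan anaemia in humans, stood at 9.26, 8.84, 9.88 and 9.12 in AngII+CsA, against 9.88, 8.88, 9.88 and 9.19 in AngII, with number 2 low in both groups. With the block, Rps19 differed by -0.18 (95% interval -0.51 to 0.16, adjusted p = 0.914), and over numbers it passed (adjusted p = 0.0165).

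On the groups alone, the small subunit genes with the smallest p for a lower level were Rps14, Rps15a and Rps2. Rps14, whose loss on 1 allele underlies the anaemia of the 5q- syndrome in humans, stood at 11.41, 11.12, 11.75 and 11.34 in AngII+CsA, against 11.88, 11.13, 12.00 and 11.50 in AngII. It was lower with CsA in every pair, while the groups overlapped. Its difference of -0.22 had a 95% interval of -0.50 to 0.06 (adjusted p = 0.886 with the block), and its F test over numbers passed (adjusted p = 0.0277). Its unadjusted p of 0.101 with the block was the smallest of any member. Rps15a stood at 9.01, 8.54, 9.12 and 8.31 in AngII+CsA, against 9.93, 8.74, 8.91 and 8.40 in AngII, with its widest gap in number 1. Rps15a thus differed by -0.25 (95% interval -0.71 to 0.21, adjusted p = 0.911 with the block). On the groups alone its interval was -1.03 to 0.53. Over numbers it passed (adjusted p = 0.0375). Rps2 stood at 11.41, 11.06, 11.70 and 11.23 in AngII+CsA, against 11.65, 11.06, 12.05 and 11.41 in AngII, again with overlapping groups. The Rps2 difference was -0.20 (95% interval -0.46 to 0.07, adjusted p = 0.89 with the block), and the test over numbers passed (adjusted p = 0.0173). Rps18, a protein of the small subunit head named here as 1 of the 3 genes whose probes differed most from one another, stood at 11.84, 11.53, 12.25 and 11.81 in AngII+CsA, against 12.13, 11.46, 12.51 and 11.95 in AngII. For Rps18 the difference was -0.15, with an interval of -0.42 to 0.12 and an adjusted p of 0.911, while the F test over numbers passed at an adjusted p of 0.016.

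Large subunit proteins near the catalytic centre and in assembly also gave no call for CsA. Rpl3, which reaches towards the peptidyl transferase centre, stood at 8.86, 8.82, 9.44 and 8.99 in AngII+CsA, against 8.86, 8.61, 9.42 and 9.01 in AngII. The groups overlapped and number 3 was high in both. With the block, Rpl3 differed by 0.05 (95% interval -0.19 to 0.30, adjusted p = 0.956), and over numbers it passed (adjusted p = 0.0208). Rpl10, which joins late and is needed for the subunits to come together, stood at 8.55, 8.55, 9.03 and 8.50 in AngII+CsA, against 8.69, 8.42, 8.75 and 8.60 in AngII. Its AngII+CsA array of number 3 stood apart from the other arrays of that group. The Rpl10 difference was 0.04 (95% interval -0.24 to 0.32, adjusted p = 0.971 with the block), and the test over numbers did not pass (adjusted p = 0.192). Rpl5 and Rpl11 bind 5S ribosomal RNA and, when ribosome assembly is disturbed, the p53 regulator Mdm2. Rpl5 stood at 10.46, 9.88, 10.44 and 9.66 in AngII+CsA, against 10.55, 9.87, 10.45 and 9.62 in AngII, with numbers 1 and 3 high and numbers 2 and 4 low in both groups. Rpl5 thus differed by -0.01 (-0.24 to 0.22, adjusted p = 0.99 with the block), and it passed over numbers (adjusted p = 0.0065). Rpl11 stood at 8.72, 8.55, 9.07 and 8.40 in AngII+CsA, against 9.29, 8.58, 8.83 and 8.40 in AngII. The Rpl11 difference was -0.09 (95% interval -0.46 to 0.27, adjusted p = 0.946 with the block), and the test over numbers did not pass (adjusted p = 0.0918).

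Several large subunit proteins have roles beyond the ribosome as a whole. Rpl13a, which in human monocytes leaves the ribosome after interferon gamma to silence inflammatory transcripts, stood at 9.04, 8.89, 9.73 and 9.19 in AngII+CsA, against 9.64, 8.91, 9.66 and 9.16 in AngII. For Rpl13a the difference was -0.13, with an interval of -0.47 to 0.21 and an adjusted p of 0.931, while the F test over numbers did not pass at an adjusted p of 0.0504. Rpl22, an RNA-binding protein that most translation can do without, stood at 8.07, 7.77, 8.46 and 7.87 in AngII+CsA, against 7.99, 7.76, 8.35 and 7.98 in AngII. Number 3 was highest in both groups. With the block, Rpl22 differed by 0.02 (95% interval -0.22 to 0.27, adjusted p = 0.978), and over numbers it passed (adjusted p = 0.0314). Rpl38, required in mice for the translation of a subset of Hox transcripts, stood at 8.29, 8.37, 8.52 and 8.22 in AngII+CsA, against 9.07, 8.34, 8.03 and 8.16 in AngII. The AngII array of number 1 was the highest and that of number 3 the lowest. Its difference of -0.05 had a 95% interval of -0.54 to 0.44 (adjusted p = 0.977 with the block), and its F test over numbers did not pass (adjusted p = 0.434). Rpl7a stood at 11.80, 11.36, 12.08 and 11.47 in AngII+CsA, against 12.13, 11.37, 12.32 and 11.64 in AngII and was lower with CsA in each pair. Rpl7a thus differed by -0.18 (-0.44 to 0.07, adjusted p = 0.891 with the block), and it passed over numbers (adjusted p = 0.0119). Rpl30 stood at 8.74, 8.33, 8.62 and 7.90 in AngII+CsA, against 9.49, 8.22, 7.81 and 7.84 in AngII, with a single AngII array, number 1, above the rest. The Rpl30 difference was 0.06 (95% interval -0.52 to 0.63, adjusted p = 0.977 with the block), and the test over numbers did not pass (adjusted p = 0.0596).

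The members varied more with the replicate number than with CsA. In limma's moderated F test over the 4 numbers, 56 of 74 members passed at an adjusted p of 0.05, or 29 of 40 large subunit, 26 of 31 small subunit and 1 of 3 stalk genes. This was 75.7% of the members beside 68.1% of all genes, a share near the background. With every probe tested on its own, 77 of 109 member probes passed, beside 66.6% of all probes. The SD over the 4 numbers had a median of 0.347 over the members and 0.404 over all genes. The residual SD after number and group had a median of 0.133 over the members and 0.184 over all genes. What the number stands for, whether culture, slide or scan, cannot be told apart. Without 1 array the number of members called ran from 17 to 69 of 74, and the share of all genes from 38.9% to 75.4%. It moved by more than 1.5 times without AngII replicate 2 (19 members, beside 42.6% of all genes) or AngII replicate 4 (17, beside 38.9%). The same held without AngII+CsA replicate 2 (26, beside 46.9%), replicate 3 (31, beside 61.4%) or replicate 4 (20, beside 40.4%). In these runs the members' share was below that of all genes.

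The members deviated in much the same way over the numbers. Their median deviations from the gene's mean were 0.15, -0.27, 0.36 and -0.19 in numbers 1 to 4, against -0.11, -0.06, 0.07 and 0.06 over all genes. Number 3 was the highest for 48 of 74 members (64.9%, against 34.0% of all genes) and number 1 for 22. Number 2 was the lowest for 40 (54.1%, against 20.1% of all genes) and number 4 for 27. Smooth muscle markers had median deviations of -1.62, -0.06, 0.96 and 0.67 over the same numbers, and fibroblast markers (2 measured) of 1.07, -0.18, -0.45 and -0.44. Their part in the members' deviations was not tested.

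This order over the numbers changed with the scaling. With quantile normalization the members' median deviations were 0.15, 0.04, -0.03 and -0.11, number 1 was then the highest for 49 members and number 4 the lowest for 41, and 25 of 74 passed the F test (54.9% of all genes). Without scaling the medians were 0.07, 0.06, -0.06 and -0.02, with 15 members past the test (67.7% of all genes). On that unscaled log2 scale the median member signal was 16.11, 16.04, 16.11 and 16.04 on the AngII+CsA arrays 1 to 4, against 16.29, 16.06, 15.66 and 15.84 on the AngII arrays. The 75th percentile subtracted from them was 6.68, 6.96, 6.40 and 6.91 on the AngII+CsA arrays, against 6.43, 6.97, 6.03 and 6.69 on the AngII arrays. The percentile was lowest in number 3 in both groups, and the scaled members were highest in number 3 in AngII+CsA and in number 1 in AngII. Relative to the median of all genes the members stood at 0.26, -0.21, 0.29 and -0.25 in numbers 1 to 4, the same with and without scaling by a constant per array, and at 0.26, 0.02, -0.03 and -0.19 after quantile normalization. A constant per array cancels in this comparison, so quantile normalization was the only other setting for it. With and without quantile normalization the members stood above all genes in number 1 and below them in number 4. The positions of numbers 2 and 3 changed sign after quantile normalization. In the authors' deposited table the F test passed for 25 of 74 members, beside 54.7% of all genes.

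**Figure D3:**
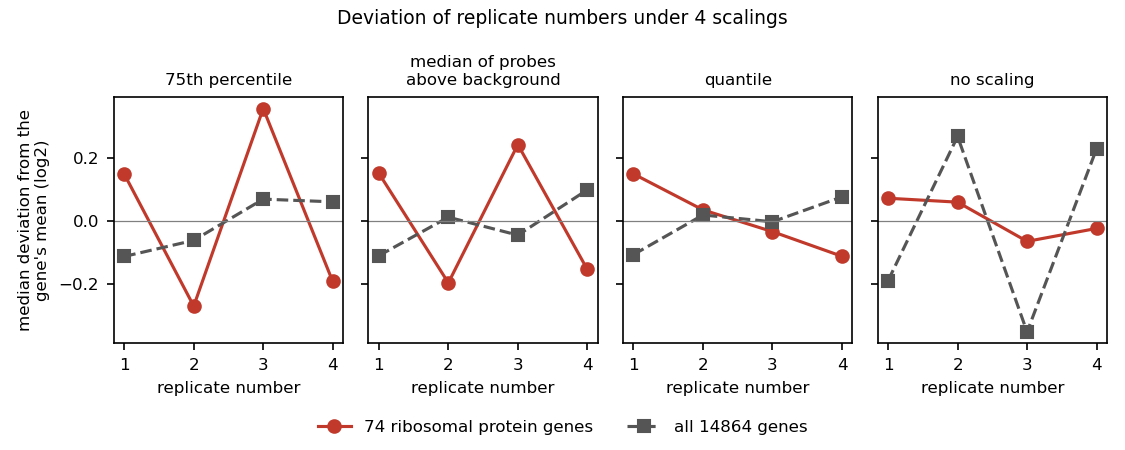
Median deviation from the gene's own mean (log2, vertical axis) by replicate number (horizontal axis), for the 74 ribosomal protein genes (circles) and all 14864 genes tested (squares), under 4 ways of scaling the arrays. The members' peak at number 3, 0.36 with the 75th percentile, is absent after quantile normalization and without scaling.

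A few members departed from the shared pattern by a wide margin. Rpl39, a very small protein of the exit tunnel, had the largest SD over numbers, 1.67, and stood at 1.51, -1.39, -1.80 and -1.28 in AngII+CsA, against 2.19, -1.42, -1.59 and -1.32 in AngII. Number 1 was far above the rest in both groups. For Rpl39 the difference was -0.20, with an interval of -0.56 to 0.15 and an adjusted p of 0.911, while the F test over numbers passed at an adjusted p of 0.00097. Rpl37a, a small zinc-binding protein, had an SD of 1.36 and stood at 3.85, 1.94, 0.75 and 1.88 in AngII+CsA, against 4.29, 2.04, 0.89 and 1.87 in AngII. Number 1 was again high and number 3 low in both groups. With the block, Rpl37a differed by -0.17 (95% interval -0.45 to 0.11, adjusted p = 0.906), and over numbers it passed (adjusted p = 0.00091). Rpl41, the smallest ribosomal protein, stood at 3.07, 2.94, 1.50 and 3.34 in AngII+CsA, against 3.60, 2.91, 1.60 and 3.17 in AngII, with number 3 low in both groups. Its difference of -0.11 had a 95% interval of -0.45 to 0.23 (adjusted p = 0.937 with the block), and its F test over numbers passed (adjusted p = 0.0031).

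Rps4x and Rpl21 ran the other way, with number 1 lowest. Rps4x, an X-linked small subunit protein, stood at 3.78, 5.16, 4.59 and 5.93 in AngII+CsA, against 1.70, 4.59, 5.82 and 5.64 in AngII on its brightest probe. Rps4x thus differed by 0.43 (-0.71 to 1.56, adjusted p = 0.932 with the block), and it passed over numbers (adjusted p = 0.0264). It was the largest positive difference of any member, and AngII+CsA was higher in numbers 1, 2 and 4 and lower in number 3. Rpl21 stood at 7.81, 8.27, 8.26 and 9.14 in AngII+CsA, against 6.13, 8.32, 9.38 and 9.14 in AngII. These values come from A_52_P258959, which is assigned to a predicted transcript. The other Rpl21 probe, A_52_P653937, was well above background on 0 of 8 arrays, so which transcript the values describe is uncertain. The Rpl21 difference was 0.13 (95% interval -0.85 to 1.11, adjusted p = 0.971 with the block), and the test over numbers passed (adjusted p = 0.0486). At the other end, Rpl35a, Rpl27a and Rpl10 had the smallest SDs over numbers on their brightest tested probes, 0.146, 0.171 and 0.178. A further Rpl10 probe, A_52_P171216, deviated by -0.28, 0.24, -0.37 and 0.40 in numbers 1 to 4. With every probe tested on its own, its F test over numbers passed (adjusted p = 0.0117). That of a further Rpl35a probe did not (adjusted p = 0.187), and the other Rpl27a probe was not tested. Rpl35a stood at 6.81, 6.78, 7.17 and 7.02 in AngII+CsA, against 7.25, 6.78, 7.09 and 6.95 in AngII, and Rpl27a at 0.39, 0.41, 0.84 and 0.37 in AngII+CsA, against 1.08, 0.42, 0.55 and 0.47 in AngII. For Rpl35a the difference was -0.07, with an interval of -0.38 to 0.23 and an adjusted p of 0.955, while the F test over numbers did not pass at an adjusted p of 0.366. With the block, Rpl27a differed by -0.13 (95% interval -0.54 to 0.28, adjusted p = 0.937), and over numbers it did not pass (adjusted p = 0.464).

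Probes of the same gene could be compared for 28 genes with at least 2 tested probes (63 probes). Their treatment differences lay within 0.25 of each other in 24 genes, with a median range of 0.08, about as large as the members' median difference itself, and had opposite signs in 8 genes. The deviation of number 1 from the other numbers had a median range of 0.37, differed by more than 1 in 4 genes and had opposite signs in 13. The probes that differed most in the treatment difference were those of Rpl11, Rps4x and Rps18. In Rpl11 and Rps18 the wide values came from dim probes, one of them well above background on 2 AngII+CsA and 3 AngII arrays (Rpl11, -1.18) and the other on all 8 (Rps18, -0.57), while the brightest probes gave -0.09 and -0.15.

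Among the 109 member probes tested, both arrays of number 1 exceeded all 6 others by more than 2 log2 units in 1, the Rpl39 probe (0.917%, against 0.256% of all probes tested). Of the member probes not tested, Rps21 A_52_P740562, Rpl36a A_52_P197926 and Rpl27a A_51_P132459 had the same pattern. Tested or not, 4 of 128 member probes had it (3.12%), against 0.719% of all 41174 probes. Outside number 1 nearly all values of the untested ones were not well above background, the exception being Rps21 A_52_P740562 on AngII+CsA replicate 2. That Rps21 probe stood at 0.96, -3.48, -4.92 and -3.96 in AngII+CsA, against 1.78, -4.51, -5.26 and -4.08 in AngII. Its overlapping neighbour A_52_P678800, which shares 42 of 60 bases, stood at 1.09, 0.21, -0.23 and -0.33 in AngII+CsA, against 1.65, 0.44, -0.93 and -0.23 in AngII. The Rps21 probe that does not overlap them, A_51_P489959, stood at 10.26, 9.95, 10.66 and 10.02 in AngII+CsA, against 10.63, 10.03, 10.62 and 10.06 in AngII. The first probe was well above background on both number 1 arrays and on AngII+CsA replicate 2, so no size is given for its gap. Number 1 was 1.55 above the other numbers on its neighbour and 0.22 on the third probe, both well above background on all 8 arrays.

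Rpl36a also had overlapping probes that differed. A_52_P197926 stood at 1.01, -6.07, -5.37 and -5.74 in AngII+CsA, against 1.999, -4.40, -5.17 and -5.63 in AngII, well above background on the number 1 arrays and on none of the others. A_51_P283920, which shares 40 of 60 bases and begins 20 bases upstream, stood at 2.97, 3.53, 2.95 and 4.28 in AngII+CsA, against 3.71, 3.68, 2.89 and 4.13 in AngII. On A_51_P283920, well above background on all 8 arrays, number 1 differed from the others by -0.24 and AngII+CsA from AngII by -0.17. For A_52_P197926 no such differences are given, since most of its values are not above background. The probe A_52_P481880 stood at 9.69, 9.26, 9.94 and 9.43 in AngII+CsA, against 10.30, 9.31, 9.85 and 9.36 in AngII. The polyadenylation hexamer AATAAA lies within the first 20 bases of A_51_P283920, upstream of A_52_P197926, and in Rps21 it lies in the bases that both overlapping probes share. It was present in 17 of 128 member probes (13.3%), against 4.78% of all probes, searched on the probe's own strand. Tested member probes with and without it had median number 1 deviations of 0.18 and 0.16.

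The same was seen between the Rps4x probes. A_51_P267995 stood at 2.82, 0.79, 0.23 and 0.90 in AngII+CsA, against 3.17, 0.79, -0.02 and 1.10 in AngII, with a number 1 deviation of 2.37 from the others, whereas on A_52_P780667, whose values are those given for the gene, it was -2.55. Their treatment differences were -0.07 and 0.43. A_52_P780667 has 61.7% G and C and no position in the files, and the only other member probe with at least 60% was that of Rpl21, with 75% and a number 1 deviation of -1.78. Over the 311 tested probes of all genes with at least 60% the median deviation was -0.54. The Spearman correlation between G and C content and the number 1 deviation, given as a description, was -0.20 over 109 member probes and -0.33 over 19499 probes of all genes, which share the same arrays.

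**Figure D4:**
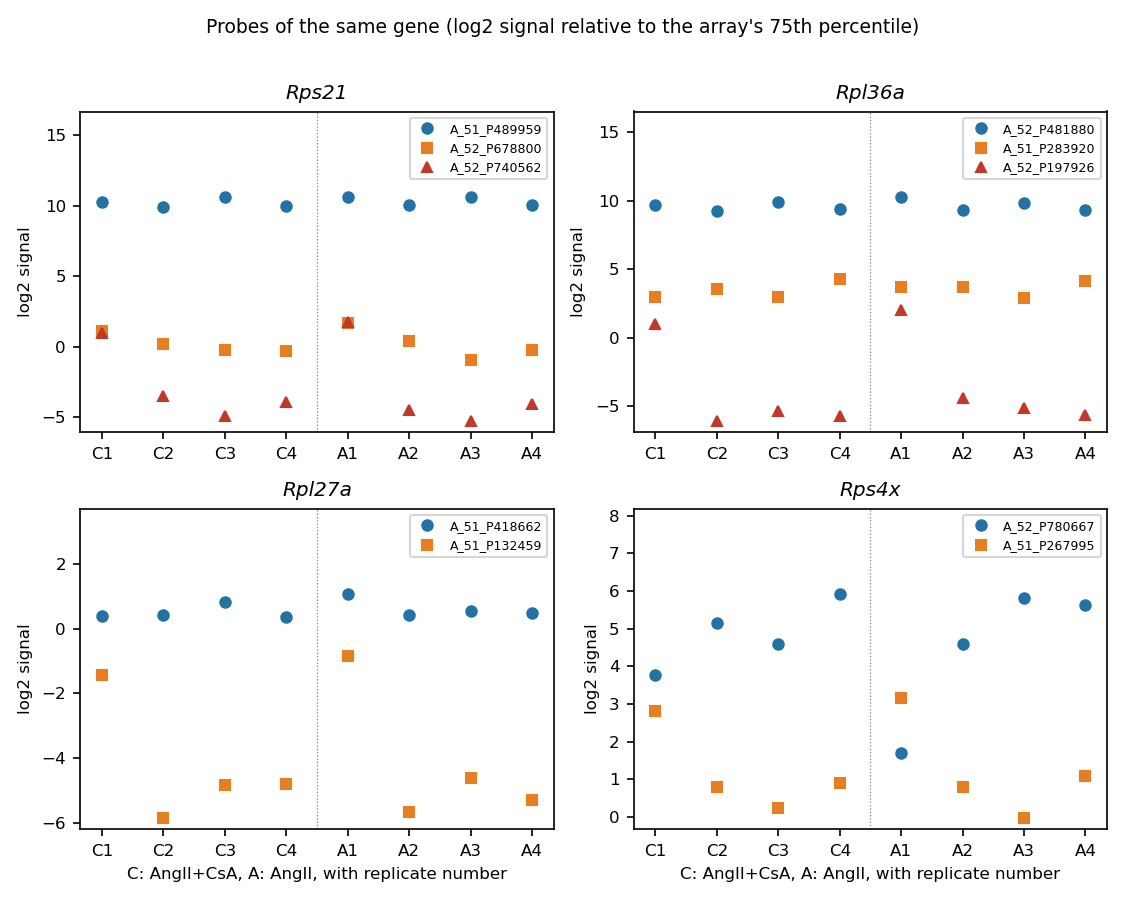
Scaled log2 signal (vertical axis) of each probe of Rps21, Rpl36a, Rpl27a and Rps4x on the AngII+CsA arrays (C1 to C4) and the AngII arrays (A1 to A4). In Rps21, Rpl36a and Rpl27a the dimmest probe is high only in number 1, and in Rps4x the probes run in opposite directions in number 1.

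Gene groups linked to the ribosome gave 0 calls for CsA as well, in either fit (0% and 0.0269% of all genes). Of 68 mitochondrial ribosomal protein genes, 39 were below 0 with a median of -0.02, and Mrps2 (-0.23) and Mrpl20 (-0.22) had the smallest p when only the groups were fitted. Of 45 ribosome biogenesis genes, 16 were below 0 with a median of 0.03, and by the same rule Rrp1b (0.30) and Nop10 (-0.23) are named (Nop10 is a protein of the particles that modify ribosomal RNA). Of 38 genes listed as translation factors or as other terminal oligopyrimidine genes, 18 were below 0 with a median of 0.01. Whether each gene of this list carries the tract was not examined. Eif3a, an initiation factor subunit, and Eif4g1, the initiation scaffold, had differences of 0.27 and 0.34. Of 21 genes of mTOR and S6 kinase signalling, 9 were below 0 with a median of 0.03, with Rheb, the activator of mTOR, at -0.19 and Sesn3 at -0.23. Of 7 paralogs and fusion genes measured, 6 were below 0 with a median of -0.14, with Fau, a fusion of a ubiquitin-like protein with Rps30, at -0.15. Rpl3l, the muscle paralog of Rpl3, had the widest difference of them (0.88), from a probe well above background on 3 AngII+CsA arrays and 1 AngII array.

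Over the replicate numbers the translation factor list had median deviations of 0.14, -0.24, 0.30 and -0.18, beside the 0.15, -0.27, 0.36 and -0.19 of the ribosomal proteins. Number 2 was also low and number 3 high in mTOR genes (0.00, -0.21, 0.21 and -0.07) and mitochondrial ribosomal protein genes (-0.00, -0.17, 0.20 and -0.03). Paralogs had 0.21, -0.12, 0.23 and -0.21, and biogenesis genes -0.17, -0.06, 0.24 and 0.01. The F test over numbers passed for 33 of 38 translation factor genes, 37 of 45 biogenesis genes, 44 of 68 mitochondrial ribosomal protein genes, 13 of 21 mTOR genes and 4 of 7 paralogs, against the 68.1% of all genes.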

How the data were processed

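Total RNA was amplified and labelled with Cy3, per the labels, giving 1 colour per array. Per the file headers, the arrays were Agilent design 014868, quantified with Feature Extraction 9.5.3.1 (protocol GE1-v5_95_Feb07). The deposited scanner files hold linear spot intensity, already background-subtracted by that software. A log2 table was deposited by the authors too, with a method and scale that are not given in the sources used here, and it served as an alternative.

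From the processed signals, log2 values were taken and each array's 75th percentile subtracted. Control and outlier spots were left out, 32 incomplete probes (0 members) were dropped, and probes well above background on at least 4 of 8 arrays were kept. The brightest probe stood for each gene. Of 41174 probes, 22951 were named by accession through RefSeq, 6659 had a current symbol and 11564 kept the file's name. Two-sided tests used limma 3.58.1 under R 4.3.3, with lmFit, eBayes and Benjamini-Hochberg adjustment over 14864 genes at a threshold of 0.05, on the groups alone, with the replicate number as a block as an alternative, since same-numbered arrays correlated at 0.70 to 0.86 in every pair. Because arrays of a number share a slide, p-values from the groups alone include that spread. The labels do not say whether cultures came from separate animals, so p-values measure only the spread between these samples. The array number limits the precision. The procedure was tested on simulated data.

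The members, the companion lists and the rule for named genes were chosen with earlier results of these data known. The rule named 14 members whatever they showed, the 5 with the smallest p in each direction, the 5 with the largest and 3 with the smallest SD over numbers, the 3 whose probes differed most, and 2 of each companion list. Rpl12, Rps7, Rps13 and the probes of Rps21, Rpl36a and Rpl27a were named after their values were seen. Alternatives covered normexp, scaling, filters, outlier spots, the probe summary, the deposited table and leaving out arrays or pairs.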

Additional observations from a re-analysis of the deposited data

Results flagged for a closer look

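Of 54 groups of 4 arrays looked at over the named members, 4 held an array whose gap to its nearest neighbour was large against the range of the group, where chance gives about 1 in 20 among groups not chosen for their spread. Both Rpl39 groups come from a gene that was named for its large SD over replicate numbers, and Rpl27a was named for its small SD. That rate therefore does not apply to these genes. Rpl10 also had 1 of the smallest SDs, but was among the members named whatever they showed. Rpl39 stood at 1.51 in AngII+CsA replicate 1, with the nearest of the other arrays of that group at -1.28. It stood at 2.19 in AngII replicate 1, with the nearest of the others at -1.32. Rpl10 stood at 9.03 in AngII+CsA replicate 3, with the nearest at 8.55. Rpl27a stood at 0.835 in AngII+CsA replicate 3, with the nearest at 0.415.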

How the results depend on the processing

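The 0 treatment calls among the members held under each alternative run, and over all genes the 0 calls became 4 with the replicate block, 6 with the replicate number as a random block, 3 with the replicate block and normexp, and stayed at 0 in each fit without 1 array or without 1 pair. The members' median difference of -0.09 was 0.12 without scaling, ran from -0.22 to 0.00 without 1 array, and from -0.13 to -0.00 without 1 pair in the fit with the replicate block, and was 0.05 with normexp. Replicate number calls over all genes, 10115, became 15404 without the filter on dim probes, and ran from 5788 to 11207 without 1 array and from 6526 to 9262 without 1 pair. The members' 56 such calls of 74 (68.1% of all genes) became 25 with quantile normalization (54.9% of all genes). They became 34 with scaling to the median of probes above background (62.5%), 25 on the authors' table (54.7%) and 15 without scaling (67.7%). Without 1 array they ran from 17 to 69, beside 38.9% to 75.4% of all genes. Without 1 pair they ran from 25 to 62. They were 29, 27 and 25 without numbers 2, 3 and 4 (53.1%, 53.7% and 43.9% of all genes), where fewer arrays entered the fit. With these 3 pairs left out, and in the 4 processing runs, the members' share was below that of all genes. The members' median SD over numbers of 0.347 became 0.184 with quantile normalization, 0.182 on the authors' table and 0.171 without scaling, and ran from 0.332 to 0.382 without 1 array and from 0.268 to 0.383 without 1 pair. The cause of these changes was not tested. Fits without scaling were added after seeing the data. Of 675 values of the 27 named members over the alternatives, 60 moved by more than the SD over pairs and 0 were called. With 4 arrays a group, and 3 residual degrees of freedom with the block, small differences were not detectable, and dim probes have only a bound below background.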
